A study of Rattus norvegicus with 16 samples.

Results

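The genes described here encode membrane carriers for protons, bicarbonate, sodium, calcium, chloride, phosphate, magnesium, iron and zinc, and belong to the solute carrier (Slc) families 4, 8, 9, 11, 12, 20, 24, 26 (without Slc26a4), 30, 34, 39, 40 and 41. Members were chosen by symbol: each array probe carries a RefSeq accession, and a gene was a member when that accession led to a rat symbol of one of these families. The reference holds 81 such symbols. A total of 49 of them had a probe, 40 with 1 probe and 9 with more, 59 probes in all, among 8899 named genes on the array. The other 32 symbols, among them Slc26a7, Slc39a14 and Slc41a1, had no probe named here and were not analysed.

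RNA came from PCCl3 cells, a differentiated rat thyroid follicular line grown with TSH and 5 further hormones or growth factors. Cells transfected with an siRNA against Pax8, the thyroid paired-box transcription factor, at 10 ng/ml (siPax8 cells) were set against wild type (wt) cells or against cells given a scrambled siRNA at the same dose (siScramble cells). According to the methods, RNA was isolated 48 hours after transfection with lipofectamine. The labels call the condition without siRNA wild type, whereas the methods list cells treated with lipofectamine, so what the wt cells received is not settled. Each comparison had 4 biological replicates, each hybridised in both dye orientations, 8 arrays per comparison and 16 in all. The hybridisation scheme gives the same siPax8 samples to both comparisons, and all cells are of 1 line. Values are log2 ratios of siPax8 over control, as mean ± SD over the 4 replicates after averaging the dye swaps. A gene was called higher or lower when each of its probes passed an adjusted p of 0.005 in limma in the same direction.

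A follicular cell takes up iodide with sodium at its base and passes it to the colloid at its apex. This transport rests on the sodium gradient and on control of cell volume and pH, to which the Slc4, Slc9 and Slc12 families contribute. Slc4 proteins carry bicarbonate in exchange for chloride or together with sodium, Slc9 proteins exchange sodium for protons, and Slc12 proteins couple chloride to sodium or potassium. Zinc is moved out of the cytosol by Slc30 (ZnT) proteins and into it by Slc39 (ZIP) proteins, and iron enters through Slc11a2 and leaves through Slc40a1 (ferroportin).

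The siRNA target itself was called lower against wt only. Pax8 had log2 ratios of -0.84, -0.57, -0.59 and -0.26 against wt (mean -0.56 ± 0.24, adjusted p = 0.000472). Against siScramble they were -0.58, -0.29, -0.12 and -0.0070 (mean -0.25 ± 0.25), and Pax8 did not pass the test there (adjusted p = 0.143). Of the 12 follicular cell markers measured, 10 were lower and 1 higher against wt. Against siScramble 1 was called, Tg, the thyroid hormone precursor, which was lower (-0.65 ± 0.12). Of all named genes, 9.46% were called lower and 7.26% higher against wt, and 1.31% and 1.67% against siScramble. Of 11 interferon response genes, 9 were higher against wt with a median of 1.13 over the list, and 1 against siScramble with a median of 0.33. Their summed intensity was 33200 to 47500 in siPax8 and 8590 to 9760 in wt cells, and 33400 to 47700 against 23300 to 28500 in siScramble cells. Their part in the transporter results was not tested. Of the markers of C cells, fibroblasts, endothelium and immune cells, 1 of 15 measured was called in any direction, Cd68, higher against wt at 0.30 ± 0.12. Of the 4 fibroblast markers other than Col1a2, each was at background on every array.

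Between 52% and 60.8% of the spots of a channel were well above background by the scanner software's own test. Of the 49 members, 27 were above background on all arrays in both channels, 11 on some, and 11 on none. A gene with several probes was counted by the probe above background most often. Slc4a1 and Slc12a5 are thus among the 27, although each also had a probe at background on every array. The families differed in this. All 4 Slc30 genes, 6 of 7 Slc39 genes, both Slc20 genes and 7 of 9 Slc4 genes were above background throughout. None of the 3 Slc34 phosphate carriers was above background on any array, nor were 2 of 4 Slc26 anion exchangers. The 5 sodium-calcium exchangers of Slc8 and Slc24 were at background on nearly every array: 2 were above it on 1 or 2 channels and 3 on none. No spot of a member was saturated.

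**Figure D1:**
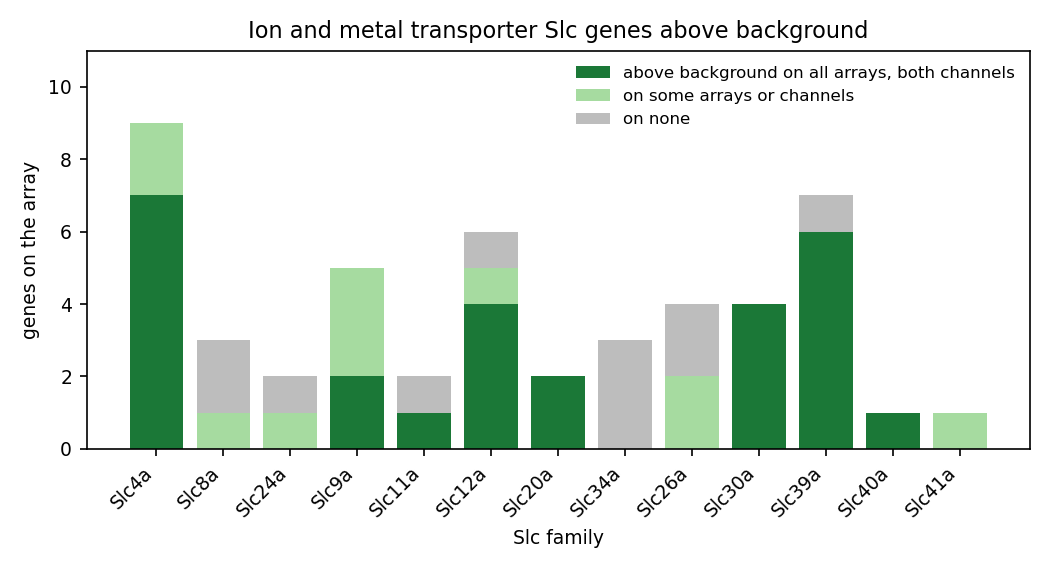
The bars count the genes of each Slc family that were on the array, by whether they were well above background on all 16 arrays in both channels, on some arrays or channels, or on none. Slc30, Slc39, Slc20 and Slc4 genes were mostly above background, and Slc34, Slc8, Slc24 and Slc26 genes had none above it throughout.

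Against wt cells, 4 members were called higher and 7 lower, and 38 were not called. Over all 8899 named genes, 7.26% were called higher and 9.46% lower in this comparison. Among the 4960 named genes above background throughout, these shares were 12.2% and 16.4%, and among the 27 such members 4 were higher and 6 lower. The share of members called was thus near that of the other genes, and the median over the members was -0.013 against -0.0052 over all named genes. All 11 called members had the same sign in 4 of 4 replicates, which a call made on these same replicates already favours. With the main processing the sizes were small apart from 2: the 2 members above background with a mean beyond 0.5 in either direction were Slc4a8 and Slc4a4. Some sizes depended on the processing, as given at the end.

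Against siScramble cells, 1 member was called higher and 0 lower, where 1.67% and 1.31% of all named genes were called. Among those above background throughout the shares were 2.88% higher and 2.3% lower. At the unadjusted level of 0.05 in the same limma fit, 8 members counted as higher and 5 as lower, where 9.96% and 13.1% of all named genes did. The median over the members was 0.0042 against -0.0034 over all named genes. The ratio differed between the comparisons for 2 members, Slc4a8 and Slc39a9, when tested by limma over both sets of 4 replicates. This difference was called for 4.56% of all named genes and for 7.84% of those above background throughout.

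**Figure D2:**
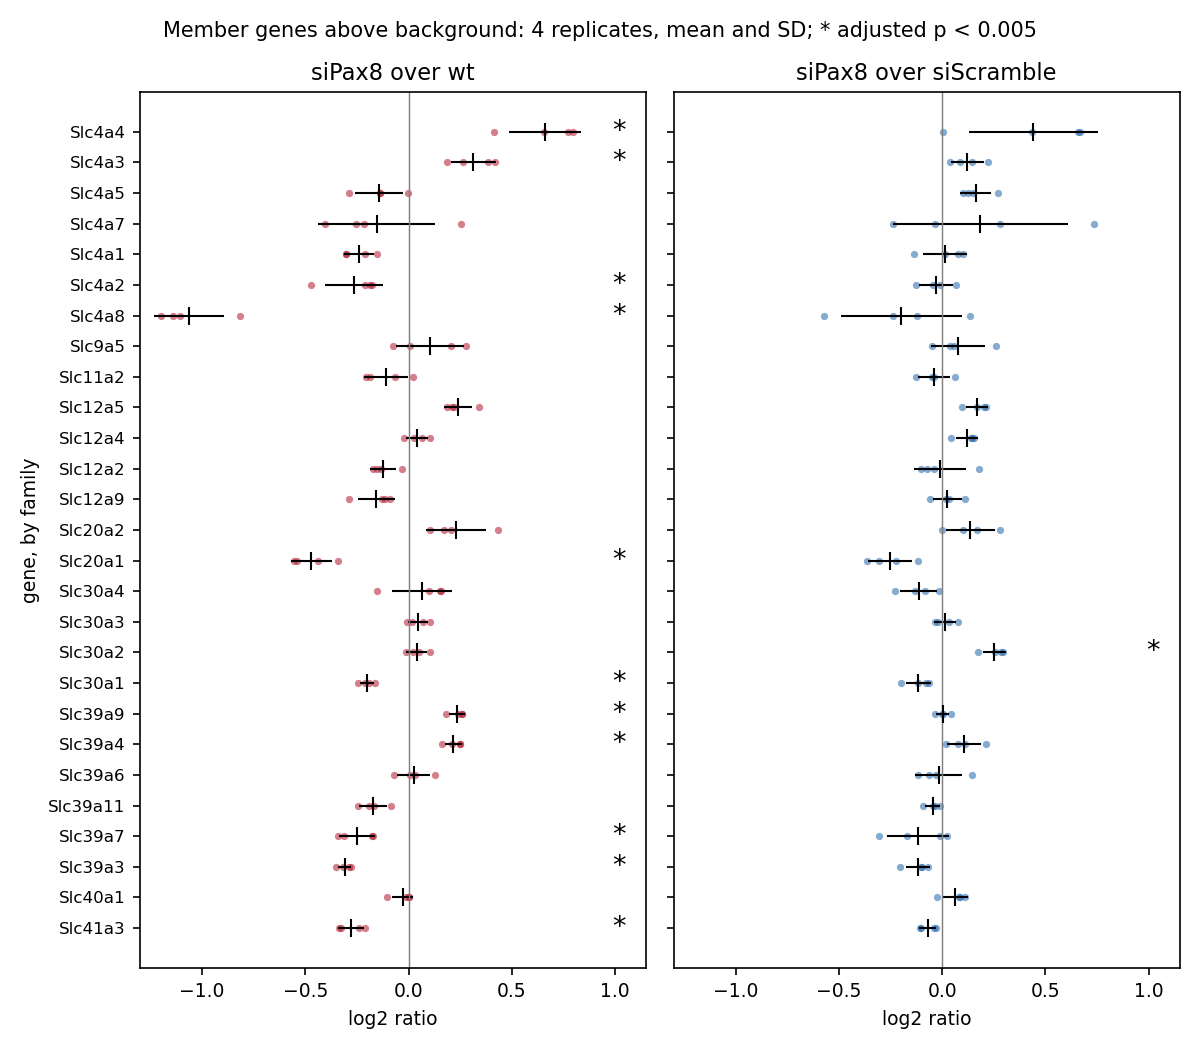
Log2 ratios of siPax8 over wt (left) and over siScramble (right) are shown for 26 of the 27 members above background throughout and for Slc41a3, ordered by family. Points are the 4 replicates, the tick and bar are their mean and SD, and a star marks an adjusted p below 0.005. The values of Slc4a1 and Slc12a5 average a bright probe with a probe at background. Slc4a8 lay between -1.20 and -0.82 against wt and between -0.57 and 0.14 against siScramble.

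The bicarbonate carriers of Slc4 held the largest changes against wt in both directions. Slc4a8, a sodium-driven chloride-bicarbonate exchanger that loads bicarbonate into the cell, had ratios of -0.82, -1.11, -1.20 and -1.14 against wt cells. It was 0.478 times the wt level (-1.06 ± 0.17, adjusted p = 2.43e-06), with all 4 replicates below every other member's mean. Against siScramble its ratios were -0.24, -0.57, 0.14 and -0.12, on both sides of 0, with a mean of -0.20 ± 0.29 that did not pass the test (adjusted p = 0.339). The difference between the comparisons was -0.87 (adjusted p = 0.00194). It was -0.71 without replicate 3 (adjusted p = 0.0161) and -0.82 without replicate 4 (adjusted p = 0.0219), and was not called in either case. Nor was the difference called with intensities processed by Agilent's software (-1.06, adjusted p = 0.025) or with siPax8 in Cy3 alone (-0.70, adjusted p = 0.00553).

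The channel intensities show where the Slc4a8 comparisons parted. In siPax8 cells the probe had a mean intensity of 302 on the arrays with wt and of 308 on those with siScramble, for which the scheme gives the same samples. The control channel had 643 in wt cells and 350 in siScramble cells. The wt replicates lay from 9.10 to 9.50 on the log2 scale, above all 4 siScramble replicates, which spread from 8.10 to 8.72.

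Slc4a4, the electrogenic sodium-bicarbonate cotransporter, went the other way. Its ratios against wt were 0.66, 0.42, 0.80 and 0.77, a level 1.58 times that of wt cells (0.66 ± 0.17, adjusted p = 4.22e-05). Against siScramble they were 0.0035, 0.44, 0.66 and 0.67, with replicate 1 near 0 and the others from 0.44 up. The mean of 0.44 ± 0.31 did not pass the test (adjusted p = 0.0456), but 0.59 without replicate 1 did (adjusted p = 0.00348), and the difference between the comparisons, 0.22, was not called either (adjusted p = 0.42).

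Slc4a8 and Slc4a4 are the members with the largest changes against wt, and the 250 bases before their annotated starts (RefSeq, build GRCr8) are given for this reason. The Slc4a8 stretch is chr7:133742580-133742829, plus strand, and that of Slc4a4 is chr14:19468283-19468532, minus strand. Capitals mark matches on either strand to the core of the metal response element (TGCACNC or TGCGCNC) or to GCGTGAC, the core shared by Pax2, Pax5 and Pax8 sites. The Slc4a8 stretch held neither, and the Slc4a4 stretch held 1 metal response core.
Slc4a8: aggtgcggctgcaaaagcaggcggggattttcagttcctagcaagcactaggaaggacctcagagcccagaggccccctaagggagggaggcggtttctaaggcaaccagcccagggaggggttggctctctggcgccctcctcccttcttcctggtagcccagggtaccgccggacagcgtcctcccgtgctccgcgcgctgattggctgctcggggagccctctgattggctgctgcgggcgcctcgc
Slc4a4: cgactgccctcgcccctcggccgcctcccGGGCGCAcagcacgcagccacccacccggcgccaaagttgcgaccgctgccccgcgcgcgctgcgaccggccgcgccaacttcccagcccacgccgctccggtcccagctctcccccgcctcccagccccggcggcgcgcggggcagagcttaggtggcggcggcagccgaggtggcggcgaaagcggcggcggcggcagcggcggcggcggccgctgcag

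Of the chloride-bicarbonate exchangers, Slc4a3 (AE3) was higher against wt and Slc4a2 (AE2), the widely expressed form, was lower. Slc4a3 had ratios of 0.42, 0.19, 0.39 and 0.26 (0.31 ± 0.11, adjusted p = 0.000518), and without replicate 3 it missed the threshold (0.29, adjusted p = 0.00613). Slc4a2 had -0.47, -0.19, -0.21 and -0.18, so replicate 1 lay well below the others (-0.26 ± 0.14, adjusted p = 0.0036). With the replicate number as a block it was not called (adjusted p = 0.00975), nor without replicate 2, 3 or 4, at -0.29, -0.28 and -0.29 (adjusted p = 0.012, 0.0172 and 0.00955). The dye orientations of Slc4a2 differed, at -0.45 with siPax8 in Cy5 and -0.082 in Cy3 against wt, and at -0.19 and 0.13 against siScramble. With a term for the dye the mean against wt stayed at -0.26 and was called (adjusted p = 0.00074). That fit counted the dye-swapped arrays of a replicate as separate, which the replicate block did not. Against siScramble neither passed, with means of 0.12 ± 0.080 for Slc4a3 and -0.030 ± 0.080 for Slc4a2.

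The remaining Slc4 genes were not called. Slc4a7, an electroneutral sodium-bicarbonate cotransporter, varied most between replicates of any member above background, with -0.22, -0.41, -0.25 and 0.25 against wt and -0.24, -0.037, 0.28 and 0.74 against siScramble. Without replicate 4, which lay on the other side of 0, it passed against wt (-0.29, adjusted p = 0.0032). Slc4a5, named after its values were seen, was below 0 in 4 of 4 replicates against wt (-0.14 ± 0.12) and above 0 in 4 of 4 against siScramble (0.16 ± 0.077). The difference of -0.30 did not pass (adjusted p = 0.00925). Also named after its values were seen, Slc4a1, the red cell anion exchanger, had a bright probe at -0.44 against wt (adjusted p = 0.00014) and a second probe at background on every array at -0.044, so the gene was not called. Against siScramble the bright Slc4a1 probe stood at 0.026 and did not pass (adjusted p = 0.885). Slc4a10, likewise named after its values were seen, had a probe that was above background in siPax8 cells on 7 of 8 arrays and not well above background on any array in wt cells, with a log2 ratio of 0.15 (adjusted p = 0.00331). Against siScramble that probe was above background on 6 arrays in siPax8 and on 4 in control cells, and its ratio of 0.13 did not pass (adjusted p = 0.0926). The other Slc4a10 probe was at background on all 8 arrays with wt, so the gene was not called.

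Of the phosphate importers, one was called. Slc20a1 (PiT1), which brings phosphate in with sodium, was lower against wt in every replicate, at -0.56, -0.54, -0.44 and -0.34, and both its probes passed (mean -0.47 ± 0.099, adjusted p = 1.16e-05 and 0.000151). This was 0.722 times the wt level. Against siScramble the replicates were -0.36, -0.31, -0.22 and -0.12, again all below 0, with a mean of -0.25 ± 0.11. Neither probe passed there (adjusted p = 0.0171 and 0.011), and the difference between the comparisons was not called (-0.22, adjusted p = 0.0925). Slc20a2 (PiT2), named after its values were seen, lay on the other side of 0, at 0.10, 0.43, 0.17 and 0.21 against wt (0.23 ± 0.14), and did not pass (adjusted p = 0.00796). It passed without replicate 1 (0.27, adjusted p = 0.0023) and with the replicate number as a block (adjusted p = 0.00375). The Slc34 carriers, including Slc34a2, stayed at background, where a ratio near 0 says nothing of a change.

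Zinc carriers were called in both directions. Of the 11 measured, 2 were higher and 3 lower against wt, and 1 was higher against siScramble. Beside this stand the 7.26% and 9.46% of all named genes called higher and lower against wt, 12.2% and 16.4% of those above background throughout, and the 1.67% called higher against siScramble. Among the exporters, Slc30a1 (ZnT1), which clears zinc across the plasma membrane, had -0.21, -0.19, -0.24 and -0.16 against wt (-0.20 ± 0.034, adjusted p = 0.00081). It missed the threshold without replicate 2 (-0.21, adjusted p = 0.00576) or replicate 3 (-0.19, adjusted p = 0.00885). Its siScramble ratios were -0.12, -0.20, -0.081 and -0.064 (-0.12 ± 0.061, adjusted p = 0.0693).

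Slc30a2 (ZnT2), which loads zinc into vesicles, was the member called against siScramble. Its ratios there were 0.29, 0.26, 0.29 and 0.17 (0.25 ± 0.055, 1.19-fold, adjusted p = 0.00371). Against wt they were 0.11, 0.020, 0.048 and -0.014 (0.040 ± 0.051), below every siScramble value. The test of the difference (-0.21) gave an adjusted p of 0.00822, and of 0.00457, past the threshold, with the replicate number as a block across the comparisons, a pairing that the replicates themselves bear out only in part. The Slc30a2 call against siScramble was lost when any replicate was left out, at 0.24, 0.25, 0.24 and 0.28 without replicates 1 to 4 (adjusted p = 0.0155, 0.0317, 0.0252 and 0.00539). The probe's intensity was 187 to 188 in siPax8 cells on both sets of arrays, 180 in wt and 158 in siScramble cells.

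Slc30a1 is a textbook target of the metal-responsive factor Mtf1, which binds metal response elements, and the 250 bases before the starts of Slc30a1 (chr13:106021769-106022018, plus strand) and Slc30a2 (chr5:151843201-151843450, plus strand) are shown because these exporters were called in opposite directions, Slc30a1 against wt and Slc30a2 against siScramble, with capitals as above.
Slc30a1: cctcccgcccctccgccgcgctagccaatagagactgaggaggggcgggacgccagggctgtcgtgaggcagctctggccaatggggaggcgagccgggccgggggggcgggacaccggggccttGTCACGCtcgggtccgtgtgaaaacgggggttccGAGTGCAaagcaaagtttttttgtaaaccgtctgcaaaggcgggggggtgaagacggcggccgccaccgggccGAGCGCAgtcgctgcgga
Slc30a2: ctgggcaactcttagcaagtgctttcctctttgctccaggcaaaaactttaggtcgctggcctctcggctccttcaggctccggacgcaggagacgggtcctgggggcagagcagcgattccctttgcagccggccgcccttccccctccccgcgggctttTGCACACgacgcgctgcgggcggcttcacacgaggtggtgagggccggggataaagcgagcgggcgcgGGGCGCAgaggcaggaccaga

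Each held 2 metal response cores. In Slc30a1 they ended 85 and 12 bases before the start, both on the minus strand relative to the gene, and in Slc30a2 83 and 15 bases before it. Slc30a1 also held GCGTGAC, on the minus strand, ending 119 bases before the start, the sole match among the 42 members with a promoter in the table. A metal response core stood in 16 of these 42 (38.1%), in 5 of 10 zinc carriers, in 26.3% of 7236 array-named genes and in 21.2% of all 27457 promoters. GCGTGAC stood in 1.85% of all promoters. Such a match is a description of the letters and not a sign of binding.

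The importers of Slc39 made up the rest. Slc39a3 (ZIP3) was lower against wt with little spread, at -0.28, -0.32, -0.29 and -0.35 (-0.31 ± 0.033, adjusted p = 6.67e-05). Slc39a7 (ZIP7), which releases zinc from the endoplasmic reticulum and Golgi, had -0.17, -0.18, -0.34 and -0.31 (-0.25 ± 0.089, adjusted p = 0.00103). It missed the threshold without replicate 3 (-0.22, adjusted p = 0.00954) or replicate 4 (-0.23, adjusted p = 0.00846). Slc39a4 (ZIP4), a plasma membrane importer, was higher, at 0.25, 0.21, 0.25 and 0.16 (0.22 ± 0.042, adjusted p = 0.000654), and missed it without replicate 3 (0.21, adjusted p = 0.00744). Against siScramble none of these passed, with means of -0.12 ± 0.059, -0.12 ± 0.15 and 0.10 ± 0.082.

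Slc39a9 (ZIP9), a Golgi and plasma membrane importer, had ratios of 0.26, 0.18, 0.24 and 0.26 against wt (0.23 ± 0.038, adjusted p = 0.000385). Against siScramble they were 0.0014, 0.041, -0.0022 and -0.033, around 0. The groups of 4 did not overlap, and the difference of 0.23 was called (adjusted p = 0.00218). That call was lost when any replicate was left out, at 0.21 to 0.26 with adjusted p from 0.00925 to 0.0296. The probe had an intensity of 329 and 323 in siPax8 cells, of 273 in wt and of 315 in siScramble cells. Slc39a11, named after its values were seen, fell just outside the threshold against wt (-0.17 ± 0.067, adjusted p = 0.00565 and 0.00571 for its probes), and passed with the replicate block (adjusted p = 0.0029). Slc39a8 (ZIP8), a carrier of zinc, manganese and iron, was at background with all 3 probes.

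**Figure D3:**
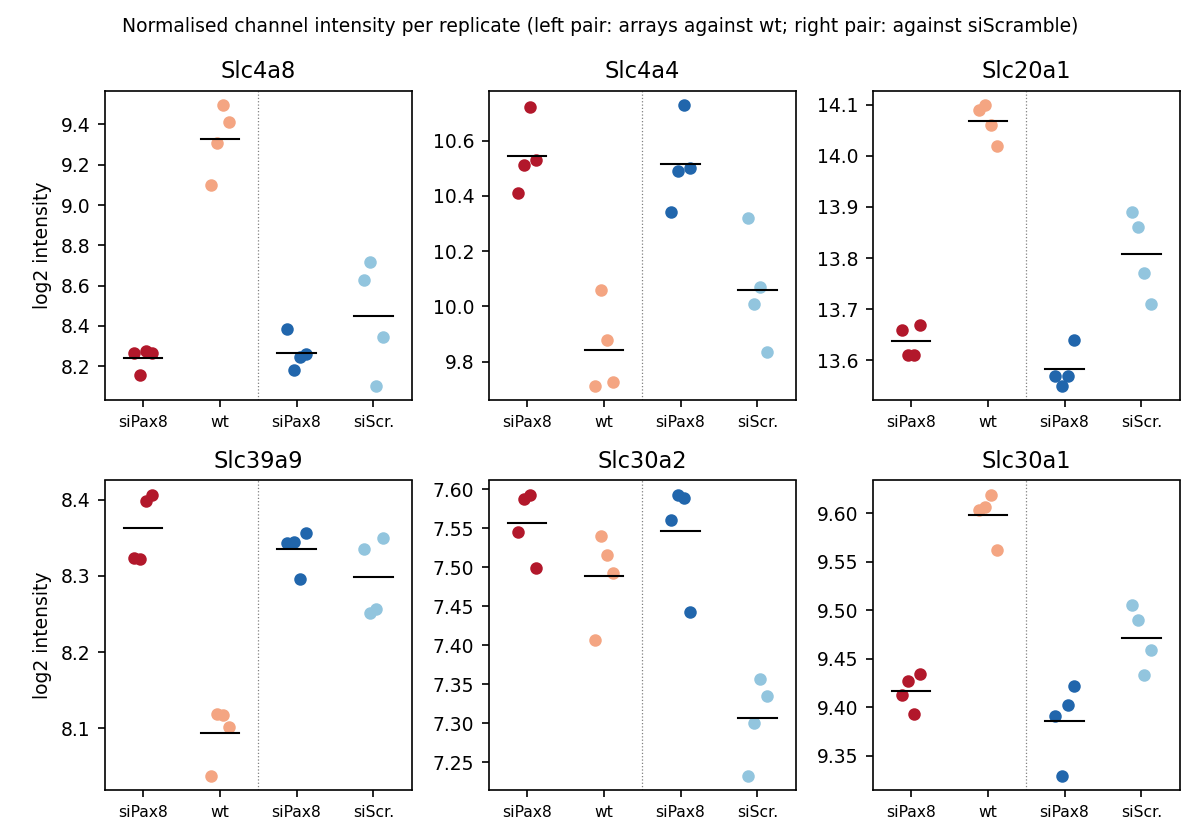
Normalised log2 channel intensities are shown per replicate for 6 members, each panel with its own axis; horizontal lines are means over 4 replicates. For Slc20a1 the brighter of 2 probes is drawn. All 6 are called members. In each panel the siPax8 means of both sets of arrays are closer together than the means of wt and siScramble. The scheme already favours this, as it gives the same siPax8 samples to both sets.

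Iron carriers were not called. Slc11a2 (DMT1), the importer, had -0.11 ± 0.11 against wt and -0.040 ± 0.078 against siScramble. Slc40a1, the exporter, had -0.028 ± 0.051 and 0.064 ± 0.061. Slc11a1, the phagosomal form, was at background throughout. For magnesium, Slc41a3, the one member of its family on the array, was lower against wt at -0.34, -0.21, -0.33 and -0.24 (-0.28 ± 0.063, adjusted p = 0.00026). It was above background on all 8 arrays there and on 6 of 8 with siScramble, where it had -0.070 ± 0.042.

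Sodium-proton exchangers and cation-chloride cotransporters were not called either. The 5 Slc9 genes measured had means from -0.10 to 0.10 against wt, and 2 of them were above background throughout. Slc12a2 (NKCC1), which brings chloride into the cell, had -0.12 ± 0.062 against wt (adjusted p = 0.0488 and 0.0619 for its probes) and -0.011 ± 0.13 against siScramble. Slc12a5 (KCC2), a potassium-chloride exporter best known in neurons and named after its values were seen, had 1 bright probe past the threshold in both comparisons. That probe stood at 0.45 against wt (adjusted p = 0.000516) and 0.36 against siScramble (adjusted p = 0.00255). The other Slc12a5 probe was at background on every array, at 0.030 and -0.019. Slc8a1 (NCX1), the sodium-calcium exchanger, was at background.

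Genes that work with these carriers were read from 5 lists. Among 56 measured partner genes, 16 were called against wt and 1 against siScramble. Of all named genes, 16.7% were called against wt in either direction and 2.99% against siScramble, and of those above background throughout 28.6% against wt. The last share is not a match for the 56 partners, as not all of these were above background throughout. In the order of the lists below, 9 of 14, 7 of 7, 5 of 10, 7 of 10 and 8 of 15 were. Of 14 iron handling genes, 2 were higher and 2 lower against wt. The ferritin chains parted: Fth1, the heavy chain, had -0.89, -0.66, -0.71 and -0.71 (-0.74 ± 0.10), and Ftl1, the light chain, had 0.40, 0.54, 0.60 and 0.60 (0.54 ± 0.094), each with all probes past the threshold. Against siScramble they had -0.10 ± 0.081 and -0.041 ± 0.11, and for both the difference between the comparisons was called. Ferritin genes have many near-identical copies, which these probes may not tell apart. Steap3, a ferric reductase, was lower against wt (-0.31 ± 0.079) and Ncoa4, the receptor for ferritin breakdown, higher (0.16 ± 0.039). Against siScramble Steap3 had -0.11 ± 0.052 and Ncoa4 0.0090 ± 0.044, and neither passed.

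Of 7 zinc and copper genes, 1 was higher and 2 lower against wt. Mt3, a metallothionein, had -0.48, -0.57, -0.45 and -0.57 against wt (-0.52 ± 0.063, adjusted p = 6.84e-06) and 0.0045 ± 0.15 against siScramble. Mt1, the common metallothionein, had -0.18 ± 0.11 against wt and did not pass (adjusted p = 0.0134). The copper exporter Atp7a was higher against wt (0.33 ± 0.087) and Slc31a2, a copper carrier, lower (-0.34 ± 0.10). Against siScramble Atp7a had 0.20 ± 0.11 and Slc31a2 -0.17 ± 0.081, and neither passed. Of 10 pH and bicarbonate genes, 3 were higher and 1 lower. Car2, the cytosolic carbonic anhydrase, had 0.45, 0.48, 0.55 and 0.36 against wt (0.46 ± 0.083) and -0.0058 ± 0.086 against siScramble. Atp6v1b2, a subunit of the proton pump of acid organelles, had 0.66 ± 0.096 and 0.30 ± 0.060. Car5b, the mitochondrial form, was lower against wt (-0.32 ± 0.067) and stood at 0.19 ± 0.052 against siScramble, where it did not pass.

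Of 10 regulators of exchangers and cotransporters, 1 was higher and 1 lower against wt. Ezr, a membrane-cytoskeleton linker that anchors exchangers through Nherf proteins, was higher (0.55 ± 0.061) and Nherf1 lower (-0.21 ± 0.10). Against siScramble Ezr had 0.17 ± 0.15 and Nherf1 -0.014 ± 0.088, and neither passed. Of 15 calcium, magnesium and phosphate genes, 3 were higher against wt. Slc8b1, the mitochondrial sodium-calcium exchanger outside the Slc8a symbols, had 0.56, 0.50, 0.44 and 0.45 (0.49 ± 0.055). Against siScramble it had 0.20 ± 0.061 and did not pass, and the limma test called the difference between the comparisons (adjusted p = 0.00217). Atp2b1, the plasma membrane calcium pump, had 0.30 ± 0.059 against wt and -0.046 ± 0.021 against siScramble. Mrs2, a mitochondrial magnesium channel, had 0.16 ± 0.044 against wt. Fgfr1, a receptor for the phosphate hormone Fgf23, was the partner called against siScramble (0.44 ± 0.048, adjusted p = 0.000375), with -0.060 ± 0.13 against wt.

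**Figure D4:**
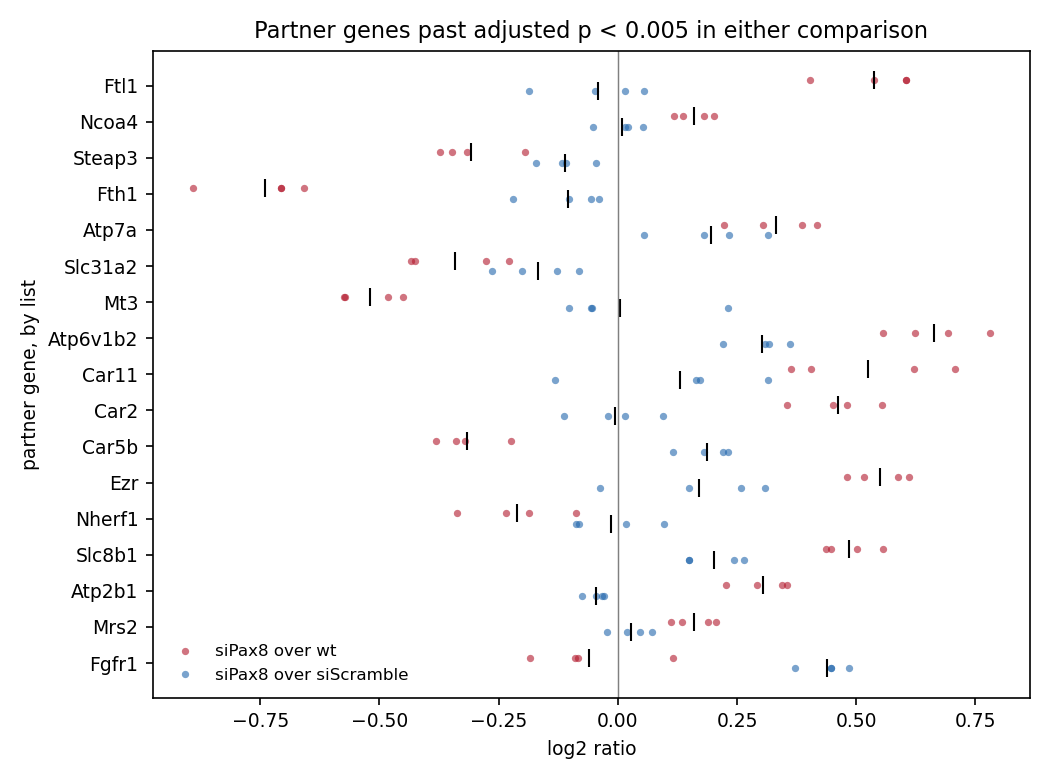
Log2 ratios of the 17 partner genes past an adjusted p of 0.005 in either comparison are shown by list, with 4 replicates each against wt and against siScramble and ticks at the means. Fth1 and Mt3 lay below -0.4 in all wt replicates, and Ftl1, Car2, Car11, Ezr, Atp6v1b2 and Slc8b1 above 0.3. The siScramble means were 0.30 for Atp6v1b2 and 0.20 for Slc8b1, and between -0.10 and 0.17 for the others named here.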

How the data were processed

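PCCl3 cells were profiled on 16 Agilent two-colour rat arrays. The authors deposited, per array, scanner intensities (spot mean and local background median of Cy3 and Cy5, not normalised), with intensities processed by Agilent's software and log10 ratios of Cy5 over Cy3. The log10 ratios were not used here. The authors also deposited a table of normalised log2 ratios, whose unit is not stated; its columns correlated with the log2 ratios computed here at -0.999 to -0.992, so it holds control over siPax8, and its column medians were -0.00074 to 0.0083. The scans were made at 5 µm and extracted with Feature Extraction 10.1.1.1 per the file headers, unlike in the methods' text, and the submitters' notes name limma.

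Intensities were corrected by normexp (offset 50), normalised by loess within arrays with control and outlier spots at weight 0, stripped of 1639 control spots of 45018, and quantile-normalised over all channels (R 4.3.3, limma 3.58.1). Outlier spots were left out (45 spots of member probes, no missing replicate value), spots of a probe and dye swaps were averaged, and lmFit and eBayes were fitted per comparison to 4 values. P-values were adjusted by Benjamini-Hochberg over 41012 probes, with the methods' threshold of 0.005. RefSeq symbols (GRCr8) named 10768 probes and 30244 had no name. A gene's value is the mean of its probes. Channel intensities came from loess and Aquantile normalisation. On simulated data with 200 changed probes, 80% of log2 changes of 0.5 were recovered against wt and 66% against siScramble, and 100% and 93% of changes of 1. The 200 probes are a far smaller share than the 16.7% of named genes called against wt. The adjustment depends on that share, so these rates need not hold for the data.

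The number of arrays limits the precision. Many spots were also dim, as the median spot was 1.62 to 2.63 times background. Each of the 4 slides carried both comparisons (2 arrays of each), and scanning took 1 day. Dye-swapped arrays of a replicate number deviated together (correlations of 0.119 to 0.58), although replicate 2 against wt correlated more with another number (0.203). Between comparisons the correlations of same numbers were 0.0443 to 0.566, with replicates 2 and 3 (0.176 and 0.0443) below the 0.408 between them, so the block across comparisons was used as an alternative. The labels call replicates biological without saying whether they were separate cultures, so p-values measure the spread between these samples. The members, gene lists and tests were chosen with earlier results of these data known. Named are all called members, 15 fixed members where a probe existed, and 6 chosen after their values were seen; 1 member is not reported here. Alternatives covered background, normalisation, dim probes, dye, blocks, slides, gene-level values, threshold and each replicate left out. The fits with a dye term or with the slide as a block did not block by replicate, so dye swaps of a sample counted as separate arrays.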

Additional observations from a re-analysis of the deposited data

Results flagged for a closer look

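Slc4a8 and Slc39a9 differed between the comparisons by the limma test of the difference itself. The log2 ratio against wt minus that against siScramble was -0.87 for Slc4a8 and 0.23 for Slc39a9. In 3 sets of 4 replicates 1 value stood apart from the other 3 by Dixon's criterion: replicate 1 of Slc4a2 against wt at -0.47, replicate 1 of Slc40a1 against wt at -0.10, and replicate 1 of Slc34a2 against wt, a gene at background, at 0.017. Chance gives about 1 such case in 20 groups, and 52 were looked at. The wt and siScramble comparisons share their siPax8 samples.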

How the results depend on the processing

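In what follows the count of members called is given as higher and lower. Against wt (4 and 7) it was 1 and 2 with intensities processed by Agilent's software, 2 higher with siPax8 in Cy3 alone, and 11 lower at a threshold of 0.05. Without 1 replicate it ranged from 2 to 5 higher and from 4 to 7 lower, lowest without replicate 3. Against siScramble (1 and 0) the count of higher members was 0 with Agilent's intensities, loess alone, the deposited table of ratios or siPax8 in Cy5 alone, 2 with dim probes removed or the slide as a block, and 4 with siPax8 in Cy3 alone or at 0.05. It ranged from 0 to 1 without 1 replicate, and 2 members were lower with siPax8 in Cy3 alone and 1 at 0.05. The difference between the comparisons (2 members) was called for 5 without background subtraction, 1 with Agilent's intensities, siPax8 in Cy5 alone or the slide block, 0 with siPax8 in Cy3 alone, 6 with a dye term or at 0.05, and 0 to 1 without 1 replicate. With Agilent's intensities the 1 called was neither Slc4a8 nor Slc39a9 (adjusted p = 0.025 and 0.0244). With siPax8 in Cy5 alone or the slide block it was Slc4a8.

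With the replicate block across the comparisons 3 members were called, Slc30a2 being added (adjusted p = 0.00457), and within the wt comparison the replicate block gave 5 higher and 7 lower. There Slc20a2 and Slc39a11 were added and Slc4a2 was lost, and the block changed no other call of a member.

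The count of partner genes against wt (16) was 3 with Agilent's intensities and 10 with siPax8 in Cy3 alone. Against siScramble (1) it was 4 without background subtraction or with the replicate block, 0 with Agilent's intensities or siPax8 in Cy5 alone, 9 with siPax8 in Cy3 alone, 2 with dim probes removed or 1 value per gene, 7 with a dye term or the slide block, 5 in 1 fit, and 8 at 0.05.

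The median over the members against wt (-0.013) was -0.034 with Agilent's intensities, -0.061 without dim probes, -0.035 with siPax8 in Cy3 alone and -0.034 within slide 1. Against siScramble (0.0042) it was -0.0019 without background subtraction, 0.017 with Agilent's intensities, 0.0098 without dim probes, and 0.0098, -0.0075 and 0.011 within slides 1, 3 and 4. Of the called members, Slc4a8, Slc4a4 and Slc41a3 were called against wt under all 17 alternatives with a test, and no called value changed sign. Some sizes moved. Against wt, Slc41a3 (-0.28) was -0.43 without background subtraction and -1.08 with Agilent's intensities. With the latter Slc39a4 (0.22) was 0.47 against wt and Slc30a2 (0.25) was 0.60 against siScramble, neither called, while Slc20a1 stayed at -0.47 against wt. With 1 value per gene before the fit, Slc12a5 (adjusted p = 0.000682) and Slc4a1 (adjusted p = 0.000751) were called against wt. The causes of these changes were not tested. Names from a gene name column were not run, as the scanner files used here hold none. Low intensities limit what can be said of the 22 members not above background throughout.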
